A study of Mus musculus with 27 samples.

Results

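The 10 genes described belong to natural killer (NK) cells and cytotoxic granules: Gzma, Gzmb, Gzmk, Prf1, Nkg7, Ncr1, Klrb1c, Klrk1, Klra7 and Eomes. They were taken by gene symbol from a table of linear RNA that holds 21742 symbols, and all 10 were found. The study profiled left lung lobes from BALB/c AnNHsd mice, 87 days old, as 27 libraries of ribosome-depleted total RNA in 4 groups. Its shared protocol models severe asthma over 35 days with house dust mite extract (HDM) and CDG, or cyclic di-GMP, a nucleotide signal of bacteria that serves as a mucosal adjuvant. Dex_CDGHDM (n = 6) combined sensitization with dexamethasone, a glucocorticoid, injected intraperitoneally at 3 mg/kg on each of days 11, 18 and 25. AM155 (n = 6) received antisense oligonucleotide against miR-155 intravenously, carried by lipid nanoparticles, at 2 mg/kg on those 3 days, and its own label does not name sensitization. CDG_HDM (n = 10) was sensitized with no further treatment, and Saline (n = 5) was not sensitized. None of these groups is a control for the nanoparticles or for the vehicle of dexamethasone, and a whole lobe mixes lung, airway and blood cells. The labels list the libraries as separate samples without saying that each is a separate animal, so p-values measure the spread between these samples.

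Cytotoxic lymphocytes, both NK cells and CD8 T cells, kill by releasing granules that hold perforin, which opens the target membrane, and granzymes, serine proteases that enter through it. NK cells decide on release by summing signals from activating receptors and from inhibitory receptors that read MHC class I. In mice, resting NK cells are known for abundant granzyme A transcript and for granzyme B and perforin transcripts stored ahead of activation, whereas granzyme K is best known from memory CD8 T cells.

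The sequences shown first are the 250 bases before the start of 4 genes whose RNA moved in different directions below, Gzma and Prf1 (lower in CDG_HDM than in Saline) and Gzmk and Nkg7 (higher). They are RefSeq sequences of build GRCm38.p6, read 5′ to 3′ on each gene's own strand. The RefSeq start of Gzmk lies inside the gene as GENCODE M21 draws it, whose longest transcript starts farther upstream. That of Nkg7 also lies inside its gene, which GENCODE M21 starts at 43437073, and that of Prf1 lies a few bases inside. The 4 were picked for display with their directions known. Capitals mark the T-box core GTGTGA or TCACAC, a motif of the family of T-bet and Eomes, and the Runx core TGTGGT or ACCACA.
Gzma promoter, chr13:113100982-113101231, minus strand: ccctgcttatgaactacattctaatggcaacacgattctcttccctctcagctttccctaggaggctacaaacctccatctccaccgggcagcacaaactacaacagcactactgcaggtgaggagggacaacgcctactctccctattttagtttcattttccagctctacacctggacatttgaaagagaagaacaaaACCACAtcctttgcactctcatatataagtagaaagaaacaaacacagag
Prf1 promoter, chr10:61297586-61297835, plus strand: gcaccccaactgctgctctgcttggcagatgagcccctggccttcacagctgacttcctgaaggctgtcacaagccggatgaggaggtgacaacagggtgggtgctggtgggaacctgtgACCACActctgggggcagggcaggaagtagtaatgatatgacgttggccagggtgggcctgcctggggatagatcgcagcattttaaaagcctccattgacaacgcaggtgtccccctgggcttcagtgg
Gzmk promoter, chr13:113180966-113181215, minus strand: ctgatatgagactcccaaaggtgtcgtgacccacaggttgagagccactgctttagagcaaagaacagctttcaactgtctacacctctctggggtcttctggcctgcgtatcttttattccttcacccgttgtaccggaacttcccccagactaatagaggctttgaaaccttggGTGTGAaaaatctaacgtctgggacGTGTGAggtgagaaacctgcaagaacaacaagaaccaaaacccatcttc
Nkg7 promoter, chr7:43436888-43437137, plus strand: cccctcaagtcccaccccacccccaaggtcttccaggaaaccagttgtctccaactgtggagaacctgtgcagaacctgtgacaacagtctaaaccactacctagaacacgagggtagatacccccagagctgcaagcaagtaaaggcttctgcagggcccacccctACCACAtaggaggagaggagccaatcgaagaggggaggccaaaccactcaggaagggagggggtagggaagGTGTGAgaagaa
Gzma and Gzmk are neighbours on chromosome 13, 70626 bases apart with no protein-coding gene between them. The Gzmk window held the T-box core at 74 and 49 bases before the RefSeq start, and the Nkg7 window held it at 12 bases before. The matches in both windows lie inside the genes as GENCODE M21 draws them. The Gzma, Prf1 and Nkg7 windows held the Runx core, and the first 2 held no T-box core. Ncr1, which was lower in CDG_HDM, also held the T-box core. Over all 10 genes, 4 had the T-box core (Gzmb, Gzmk, Ncr1 and Nkg7), against 12.3% of 32851 promoter windows of the same length. The Runx core was in 7 of 10, against 14.0% of those windows, and the ETS core AGGAAG or CTTCCT in 4 of 10 (Prf1, Nkg7, Klrb1c and Klra7), against 29.5%. T-box and Runx matches did not overlap, and a match describes letters in a window, not a binding site.

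The second pair of sequences concerns the microRNA that the AM155 oligonucleotide is directed against. Capitals mark the seed, bases 2 to 8, in the microRNA, and its complement AGCATTA in the transcript. The microRNA is given from RefSeq (GRCm38.p6) and the site from GENCODE M21 (GRCm38).
mmu-miR-155-5p, chr16:84714143-84714165, plus strand: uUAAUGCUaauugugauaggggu
Eomes site, chr9:118485010-118485027, plus strand: tagAGCATTAttttaacc
Among the 10 genes, Eomes alone had a seed match in its annotated 3′ UTR, 1 match that directly follows the stop codon (tag in the sequence shown). Of all 21685 genes with a 3′ UTR, 1749 (8.07%) had a match.

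Values are TPM (a share of all transcripts corrected for length), and changes are differences in log2(TPM + 1) ± SE from limma fitted over all 27 libraries and 17437 genes, with Benjamini-Hochberg adjustment and a call at an adjusted p under 0.05. All 10 genes passed the filter of 1 TPM in at least 5 libraries, although Gzmk reached 1 TPM in 16 libraries and Klra7 in 7, so their log2 changes understate the linear ones. Mean levels over all libraries ran from 33.5 TPM for Gzma, 19.2 TPM for Nkg7 and 18.3 TPM for Klrb1c down to 1.17 TPM for Gzmk and 0.753 TPM for Klra7. The libraries differed in what the table holds: linear RNA summed to 629353 to 767968 TPM in Dex_CDGHDM, 542264 to 770987 in AM155, 628177 to 798457 in CDG_HDM and 806446 to 858506 in Saline. Circular RNA took 219215 to 240756 TPM in 3 libraries (Dex_CDGHDM 4, AM155 5 and AM155 6) and at most 109468 TPM in the others, and calls lost without those 3 are given with the comparisons. None of the 10 genes was among the 4416 symbols of the circular table. Rescaling changed the split of calls over all genes. In CDG_HDM minus Saline, 29.1% of calls were higher as deposited, and 62.9%, 51.0% and 45.7% with a common sum, median-of-ratios factors and quantile normalization. Over all genes, the median log2 change moved between -0.10 (as deposited) and 0.04 (common sum).

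**Figure D1:**
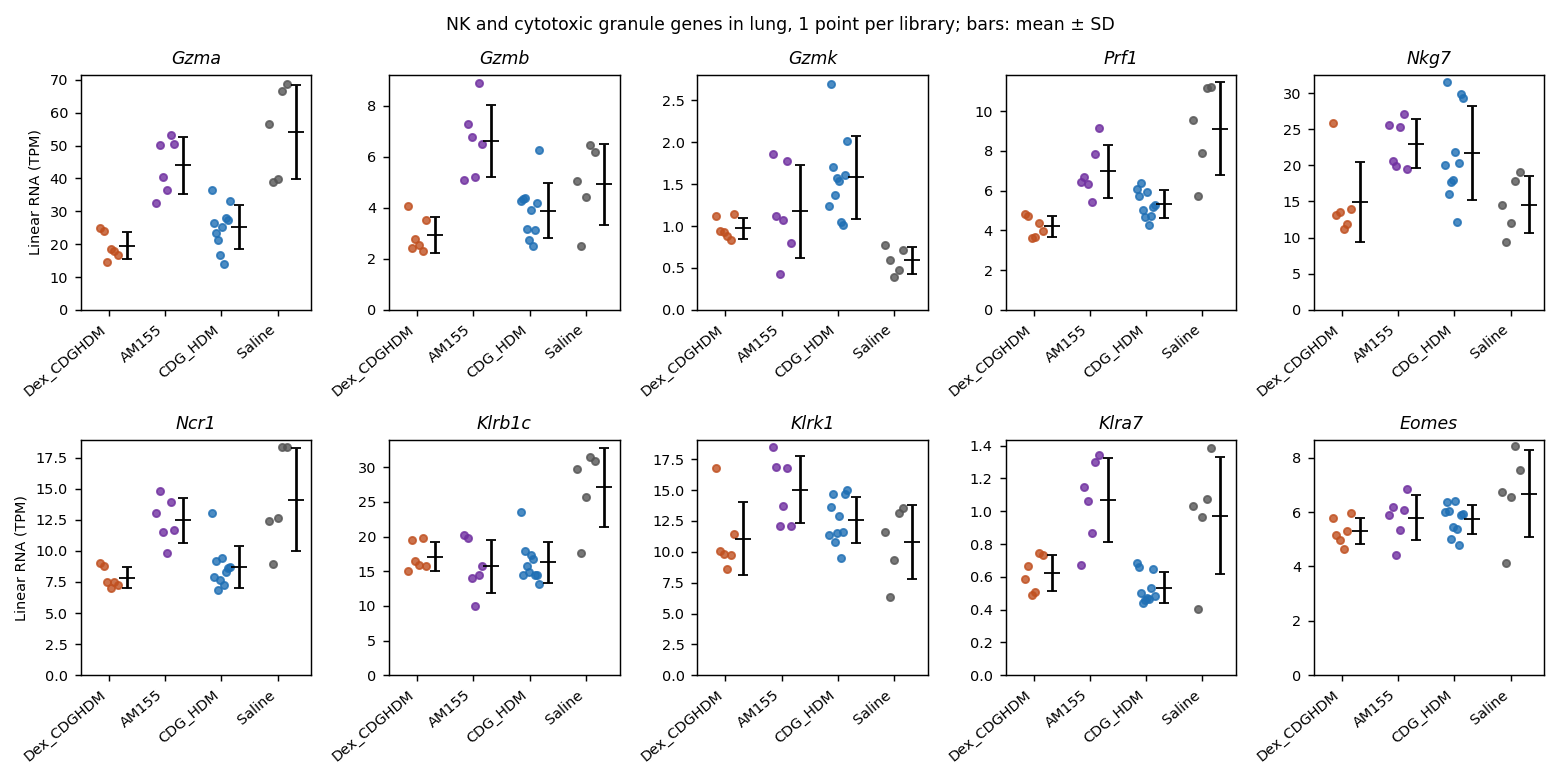
Level of each of the 10 genes in TPM (linear axis from 0) in every library of Dex_CDGHDM, AM155, CDG_HDM and Saline, with mean ± SD beside the points. For Gzma, all 10 CDG_HDM libraries (14.0 to 36.4 TPM) lie below all 5 Saline libraries (39.0 to 68.9 TPM), and for Gzmk they lie above.

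Sensitization, read from CDG_HDM and Saline, split the 10 genes. Gzma, Prf1, Klrb1c, Ncr1 and Klra7 were lower in CDG_HDM than in Saline, Gzmk and Nkg7 were higher, and Gzmb, Eomes and Klrk1 did not pass the test. These 5 lower and 2 higher calls of 10 stand beside 22.8% of all tested genes called lower and 9.35% called higher (32.2% in either direction). The median change of the 10 genes was -0.30, against -0.10 for all genes tested. In whole lung, fewer cells of a type and less RNA per cell cannot be told apart.

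Among the granzymes, Gzma (chr13:113093825-113100981, minus strand) encodes granzyme A, a trypsin-like protease that triggers cell death without caspases. It had 14.0 (lowest), 25.8 (median) and 36.4 (highest) TPM in CDG_HDM, against 56.5, 39.0, 39.9, 66.7 and 68.9 TPM in Saline libraries 2, 4, 5, 8 and 10. No CDG_HDM library reached the lowest Saline library. The mean was 25.2 ± 6.82 TPM in CDG_HDM and 54.2 ± 14.3 TPM in Saline (SD, n = 10 and n = 5), and the log2 change was -1.08 ± 0.18 (limma adjusted p = 2.02e-05).

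Gzmk (chr13:113171608-113225908, minus strand) encodes granzyme K, another trypsin-like granzyme. It had 1.01, 1.55 and 2.69 TPM (lowest, median and highest) in CDG_HDM, against 0.771, 0.592, 0.398, 0.472 and 0.717 TPM in Saline libraries 2, 4, 5, 8 and 10. Every CDG_HDM library was above every Saline library, the opposite of its neighbour Gzma. The mean level was 2.68 times that in Saline and the log2 change was 0.68 ± 0.13 (limma adjusted p = 0.00014). Gzmb (chr14:56258838-56262260, minus strand) encodes granzyme B, which cleaves caspases and their substrates. Its log2 change was -0.26 ± 0.16 (limma adjusted p = 0.222), with 2.52 to 6.26 TPM in CDG_HDM and 2.51 to 6.46 TPM in Saline, and the groups overlapped.

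Prf1 (chr10:61297833-61304680, plus strand) encodes perforin, the pore former. It had 4.29, 5.22 and 6.41 TPM (lowest, median and highest) in CDG_HDM, against 9.55, 5.74, 7.91, 11.2 and 11.2 TPM in Saline libraries 2, 4, 5, 8 and 10. Only Saline 4 fell among the CDG_HDM values. The log2 change was -0.65 ± 0.12 (limma adjusted p = 6.94e-05). Nkg7 (chr7:43437073-43438249, plus strand) encodes a granule membrane protein needed for efficient granule release. It had 12.2, 20.2 and 31.5 TPM in CDG_HDM, against 14.5, 9.46, 12.0, 17.8 and 19.0 TPM in Saline libraries 2, 4, 5, 8 and 10. The groups overlapped, 9 of 10 CDG_HDM libraries were above the Saline mean, and the log2 change was 0.53 ± 0.19 (limma adjusted p = 0.0278). That call was lost, at an adjusted p of 0.0504 to 0.0975, when CDG_HDM 4, CDG_HDM 13, CDG_HDM 14, Saline 4 or Saline 5 was left out.

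The receptors also divided. Ncr1 (chr7:4337724-4345164, plus strand) encodes NKp46, an activating receptor that marks NK cells and some innate lymphoid cells. It had 6.88, 8.47 and 13.0 TPM (lowest, median and highest) in CDG_HDM, against 12.4, 8.91, 12.6, 18.3 and 18.4 TPM in Saline libraries 2, 4, 5, 8 and 10, a log2 change of -0.61 ± 0.13 (limma adjusted p = 0.000447). Klrb1c (chr6:128778485-128789215, minus strand) encodes a lectin-like activating receptor of the Klrb1 cluster. It had 13.1, 15.3 and 23.6 TPM in CDG_HDM, against 29.7, 17.7, 25.7, 31.4 and 30.9 TPM in Saline libraries 2, 4, 5, 8 and 10, a log2 change of -0.69 ± 0.14 (limma adjusted p = 0.000231). The ranges met for both receptors: Saline 4 was the lowest Saline library in each, and CDG_HDM 3 was the highest CDG_HDM library in each. For Klrb1c, the other 4 Saline libraries were above every CDG_HDM library.

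Klra7 (chr6:130218605-130233322, minus strand) encodes Ly49G, an inhibitory receptor for MHC class I. It averaged 0.534 ± 0.0931 TPM in CDG_HDM and 0.972 ± 0.357 TPM in Saline (SD, n = 10 and n = 5), a log2 change of -0.34 ± 0.09 (limma adjusted p = 0.00388). Saline 4, at 0.402 TPM, was below every CDG_HDM library, and the other 4 Saline libraries, from 0.965 TPM, were above every one. Klra7 and Klrb1c belong to clusters of near-identical genes whose content differs between mouse strains, and the reference is not of BALB/c, so their reads may be split or lost among copies. Klrk1 (chr6:129610323-129623864, minus strand) encodes NKG2D, an activating receptor shared by NK cells and activated CD8 T cells. Its log2 change was 0.23 ± 0.14 (limma adjusted p = 0.226), with 9.50 to 15.0 TPM in CDG_HDM and 6.34 to 13.5 TPM in Saline. Eomes (chr9:118478212-118486132, plus strand) encodes the T-box factor that maintains mature NK cells and memory CD8 T cells. It averaged 5.73 ± 0.550 TPM in CDG_HDM and 6.68 ± 1.61 TPM in Saline (SD, n = 10 and n = 5), a log2 change of -0.17 ± 0.10 (limma adjusted p = 0.223).

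Saline 4 held the lowest Saline value for 9 of the 10 genes, Gzmk excepted. Without Saline 4, Gzmb and Eomes were also called lower (limma adjusted p = 0.0226 and 0.00668), which gave 7 lower calls. Lower calls over all 17437 genes also went from 3976 to 5940, and the median change from -0.098 to -0.158. The 7 called changes kept their sign under every alternative tried.

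**Figure D2:**
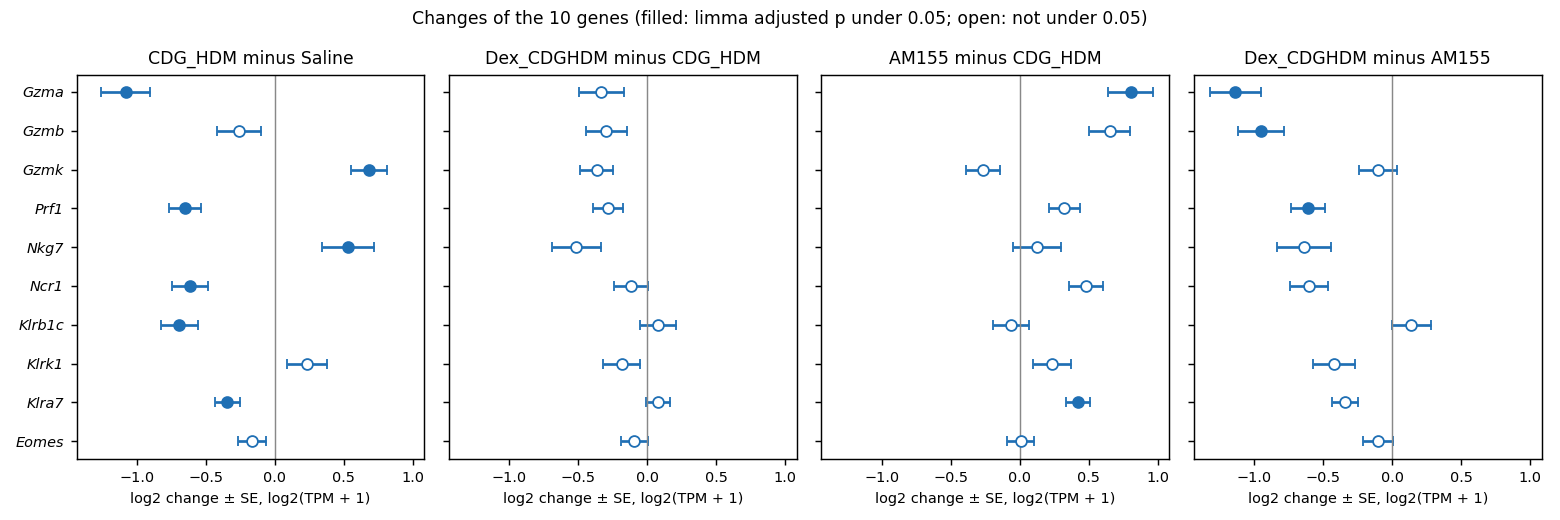
Log2 change ± SE of each gene in 4 comparisons, on the log2(TPM + 1) scale, with filled points at a limma adjusted p under 0.05. Gzma stands at -1.08 and Gzmk at 0.68 in CDG_HDM minus Saline, and they stand at 0.80 and -0.26 in AM155 minus CDG_HDM, which shares the CDG_HDM libraries.

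Dexamethasone was compared with sensitization alone. In Dex_CDGHDM minus CDG_HDM, limma called 0 of the 10 genes in either direction, beside 0.00573% of all tested genes (1 gene). At an unadjusted p under 0.05, 3 of the 10 genes were lower and 0 higher, beside 393 lower and 300 higher of all 17437 genes. All 12 T cell markers were lower at that threshold too (median -0.48), and their part in these values was not tested. The 3 genes were Gzmk (log2 change -0.37 ± 0.12, adjusted p = 0.677), Nkg7 (-0.51 ± 0.18, adjusted p = 0.739) and Prf1 (-0.28 ± 0.11, adjusted p = 0.971). Gzma had 14.7, 18.2 and 24.8 TPM (lowest, median and highest) in Dex_CDGHDM, against 14.0, 25.8 and 36.4 TPM in CDG_HDM, a log2 change of -0.33 ± 0.17 (limma adjusted p = 1). Prf1 had 3.64, 4.18 and 4.82 TPM in Dex_CDGHDM, against 4.29, 5.22 and 6.41 TPM in CDG_HDM. The groups overlapped for all 10 genes, and the median change was -0.23, against -0.01 for all genes tested. Nkg7 and Klrk1 each had 1 high Dex_CDGHDM library, number 1, at 25.9 and 16.8 TPM, while the other 5 reached 13.9 and 11.5 TPM at most.

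The antisense oligonucleotide was compared with sensitization alone in AM155 minus CDG_HDM. Gzma and Klra7 were higher and no gene of the 10 was called lower, and these 2 of 10 stand beside 0.0918% of all tested genes called higher (16 genes), 0.0115% called lower and 0.103% called in either direction. Gzma had 32.6, 45.4 and 53.4 TPM (lowest, median and highest) in AM155, against 14.0, 25.8 and 36.4 TPM in CDG_HDM. All but 1 of the 6 AM155 libraries were above every CDG_HDM library. The mean was 44.0 ± 8.61 TPM in AM155 and 25.2 ± 6.82 TPM in CDG_HDM (SD, n = 6 and n = 10), a log2 change of 0.80 ± 0.17 (limma adjusted p = 0.0378). Klra7 averaged 1.07 ± 0.257 TPM in AM155 and 0.534 ± 0.0931 TPM in CDG_HDM (SD, n = 6 and n = 10), a log2 change of 0.42 ± 0.09 (limma adjusted p = 0.0298).

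Both calls were lost when certain single libraries were left out. Gzma was no longer called (adjusted p = 0.0502 to 0.183) when any of CDG_HDM 5, 7, 8, 9 or 10, AM155 3, 5, 8 or 11, or Dex_CDGHDM 4 was left out. Klra7 was no longer called (adjusted p from 0.05 to 0.161) when any of CDG_HDM 7, 8, 9, 10 or 14, or AM155 3, 5, 8 or 11 was left out. Without the 3 libraries rich in circular RNA, neither was called (Gzma 0.89 ± 0.20, adjusted p = 0.086, and Klra7 0.45 ± 0.10, adjusted p = 0.0664). The log2 change of Gzma lay between 0.72 and 0.93 over all alternatives tried.

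Gzmb, Ncr1 and Prf1 had positive changes that did not pass. Gzmb had 5.08, 6.64 and 8.89 TPM (lowest, median and highest) in AM155, against 2.52, 4.05 and 6.26 TPM in CDG_HDM, a log2 change of 0.65 ± 0.15 (limma adjusted p = 0.105). Ncr1 had 9.82, 12.4 and 14.8 TPM in AM155, against 6.88, 8.47 and 13.0 TPM in CDG_HDM, a log2 change of 0.48 ± 0.12 (limma adjusted p = 0.232). In both genes every AM155 library was above 9 of the 10 CDG_HDM libraries, and both passed under each of the 3 other scalings. Prf1 had a log2 change of 0.32 ± 0.11 (limma adjusted p = 0.59). Gzmk ranged from 0.428 to 1.86 TPM in AM155 and from 1.01 to 2.69 TPM in CDG_HDM, a log2 change of -0.26 ± 0.12 (limma adjusted p = 0.67). Klrk1, Nkg7, Klrb1c and Eomes lay between -0.06 and 0.23, and Eomes, the gene with the seed match, was at 0.01 ± 0.10 (limma adjusted p = 0.977).

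The 2 treatments were also compared with each other. Gzma, Gzmb and Prf1 were lower in Dex_CDGHDM than in AM155, 3 of 10 genes beside 0.0631% of all tested genes called lower (11 genes), 0.0172% called higher and 0.0803% called in either direction. The mean of Gzma was 19.5 ± 4.11 TPM in Dex_CDGHDM and 44.0 ± 8.61 TPM in AM155 (SD, n = 6 each), a log2 change of -1.14 ± 0.19 (limma adjusted p = 0.00443). Gzmb averaged 2.95 ± 0.702 TPM in Dex_CDGHDM and 6.63 ± 1.41 TPM in AM155 (SD, n = 6 each), a log2 change of -0.95 ± 0.17 (limma adjusted p = 0.00893). Prf1 averaged 4.20 ± 0.522 TPM in Dex_CDGHDM and 6.98 ± 1.32 TPM in AM155 (SD, n = 6 each), a log2 change of -0.61 ± 0.12 (limma adjusted p = 0.0366). The groups did not overlap for these 3 genes or for Ncr1, which was at -0.60 ± 0.14 (limma adjusted p = 0.0811). How many of all tested genes had groups without overlap was not counted. The call of Prf1 was lost, at an adjusted p of 0.0513 to 0.132, when any single library of 5 AM155 libraries (all but number 6) or of 5 Dex_CDGHDM libraries (all but number 1) was left out. Without the 3 libraries rich in circular RNA, none of the 3 was called, with changes of -1.21, -0.98 and -0.68 (limma adjusted p = 0.059, 0.0854 and 0.0827).

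Each treated group was also set against Saline; the difference between these 2 comparisons is Dex_CDGHDM minus AM155, given above. In Dex_CDGHDM minus Saline, 5 of 10 genes were lower and 0 higher, beside 17.5% of all tested genes called lower, 7.59% called higher and 25.1% called in either direction. Gzma was at -1.41 ± 0.19 (limma adjusted p = 3.13e-06) and Prf1 at -0.93 ± 0.13 (limma adjusted p = 3.26e-06), both with no overlap, and Ncr1, Klrb1c and Gzmb were at -0.73, -0.61 and -0.55. The call of Gzmb was lost without Saline 8 or Saline 10 (adjusted p = 0.0691 to 0.0732). In AM155 minus Saline, 2 genes were lower and 3 higher, beside 32.7% called lower, 7.82% called higher and 40.5% called in either direction. Klrb1c was at -0.76 ± 0.15 (limma adjusted p = 0.000276) and Prf1 at -0.32 ± 0.13 (limma adjusted p = 0.0443). The call of Prf1 was lost without AM155 2, 3, 5 or 6 or Saline 2, 8 or 10 (adjusted p = 0.0576 to 0.153) and without the 3 libraries rich in circular RNA (adjusted p = 0.259). Nkg7, Klrk1 and Gzmk were at 0.66, 0.47 and 0.42. The call of Gzmk was lost without AM155 2, AM155 8, Saline 5 or Saline 8 (adjusted p = 0.0506 to 0.0666), and that of Klrk1 without Saline 4 or Saline 5 (adjusted p = 0.0531 to 0.0805). Gzma was at -0.28 ± 0.19 (limma adjusted p = 0.251), with 32.6 to 53.4 TPM in AM155 and 39.0 to 68.9 TPM in Saline. These comparisons share the Saline or CDG_HDM libraries with those above and are not independent of them.

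The order of the group means differed between genes. For Gzma it ran Saline, AM155, CDG_HDM and Dex_CDGHDM from high to low, and the ranges of each neighbouring pair overlapped. For Gzmk it ran CDG_HDM, AM155, Dex_CDGHDM and Saline, with no overlap between Dex_CDGHDM (0.831 to 1.14 TPM) and Saline (0.398 to 0.771 TPM). Gzmb was highest in AM155 at 6.63 TPM, followed by 4.92 TPM in Saline, 3.89 TPM in CDG_HDM and 2.95 TPM in Dex_CDGHDM.

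Each gene was also set against Gzma, since a scale common to a library cancels nearly out of a difference between 2 well-expressed genes. For Gzmk and Klra7, near 1 TPM, it cancels only in part, because 1 is added to TPM. The measure is log2(TPM + 1) of the gene minus that of Gzma, tested by exact 2-sided permutation and adjusted over 27 tests. On the log2(TPM + 1) scale, Gzma had the largest change of the 10 genes in CDG_HDM minus Saline and in AM155 minus CDG_HDM. The sign of most differences therefore follows from the choice of Gzma, and their number is no result about the other genes. As ratios of mean TPM, Gzmk changed more than Gzma in the first comparison and Klra7 did in the second (1.996 against 1.744). The values describe how far each gene stood from Gzma. In CDG_HDM minus Saline, Gzmk minus Gzma averaged -3.32 ± 0.42 in CDG_HDM and -5.08 ± 0.35 in Saline (SD, n = 10 and n = 5). The difference was 1.76, and it ran from 1.65 to 2.37 over all alternatives tried. Nkg7 minus Gzma averaged -0.21 ± 0.32 in CDG_HDM and -1.83 ± 0.11 in Saline, a difference of 1.61. Klrk1, Eomes and Gzmb followed at 1.31, 0.92 and 0.82. In these 5 the groups did not overlap, and the exact permutation p of 0.000333 is the smallest that 10 against 5 libraries can give (adjusted p = 0.0018). Klra7, Ncr1 and Prf1 were at 0.74, 0.47 and 0.43 (exact permutation, adjusted p = 0.0045, 0.0185 and 0.0353). Prf1 no longer passed without CDG_HDM 5 or Saline 2, 4, 8 or 10 (exact permutation, adjusted p = 0.052 to 0.0714), nor Ncr1 without Saline 2 (exact permutation, adjusted p = 0.0501). Klrb1c was at 0.39 (exact permutation, adjusted p = 0.111) and passed without CDG_HDM 14 (exact permutation, adjusted p = 0.0389).

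**Figure D3:**
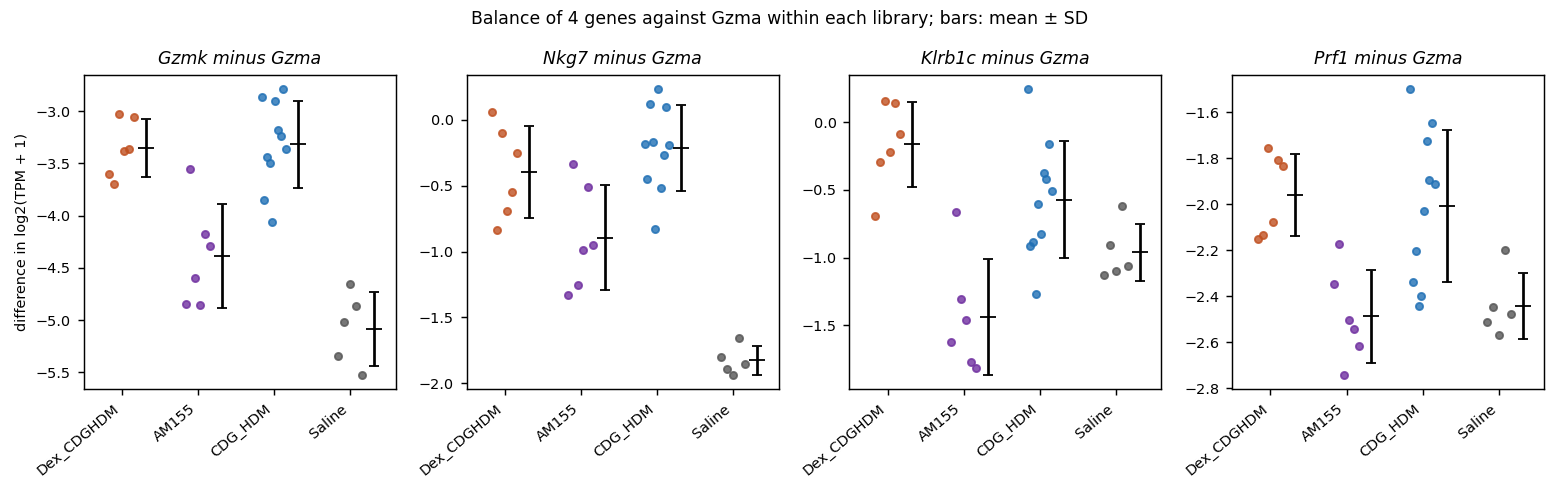
Difference in log2(TPM + 1) between Gzmk, Nkg7, Klrb1c or Prf1 and Gzma in each library, with mean ± SD. The Gzmk difference averages -3.35 in Dex_CDGHDM, -4.39 in AM155, -3.32 in CDG_HDM and -5.08 in Saline.

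In AM155 minus CDG_HDM, which shares the CDG_HDM libraries, Gzmk minus Gzma averaged -4.39 ± 0.49 in AM155 and -3.32 ± 0.42 in CDG_HDM (SD, n = 6 and n = 10), a difference of -1.07 (exact permutation, adjusted p = 0.00281). Klrb1c, Eomes and Nkg7 were at -0.87, -0.80 and -0.68 (exact permutation, adjusted p = 0.00674, 0.00337 and 0.00742). Klrk1, Prf1 and Klra7 were at -0.57, -0.48 and -0.38 (exact permutation, adjusted p = 0.0207, 0.0185 and 0.0393). Without the 3 libraries rich in circular RNA, none of these last 3 passed (exact permutation, adjusted p = 0.0581, 0.0611 and 0.0611). Klrk1 was also lost without AM155 11 (exact permutation, adjusted p = 0.0559). Klra7 was lost without CDG_HDM 4, 5, 7 or 13, or any AM155 library but number 2 (exact permutation, adjusted p = 0.0518 to 0.0832). With a pseudocount of 0.1 or 0.5 Klra7 was lost too, and at 0.1 its sign reversed (0.032), so the value for Klra7 depends on the pseudocount. Gzmb, at -0.15, and Ncr1, at -0.32, did not pass (exact permutation, adjusted p = 0.246 and 0.0706), although Ncr1 passed without CDG_HDM 14 or AM155 2 (exact permutation, adjusted p = 0.0193 to 0.0364). In Dex_CDGHDM minus CDG_HDM, 0 of 9 genes passed by the exact permutation test, with Klra7 alone under 0.05 unadjusted (difference 0.41, p = 0.0332, adjusted p = 0.0561). Klra7, Klrb1c and Ncr1 passed there when certain single libraries were left out (exact permutation, lowest adjusted p = 0.0167, 0.0281 and 0.0495).

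Other genes of the cytotoxic pathway were counted in CDG_HDM minus Saline from lists of known function, to be read beside the 9.35% of all genes called higher and 22.8% called lower. Of 8 other granule proteases and cargo genes tested, 3 rose and 1 fell. Those that rose were Cst7, an inhibitor of cathepsins (1.09 ± 0.17), Ctsw, a cathepsin of NK and CD8 T cells (0.82 ± 0.13), and Ctsc, which activates granzyme precursors (0.79 ± 0.14), and Gzmm fell (-0.26 ± 0.09). Of 8 exocytosis genes 1 rose and 1 fell, Stxbp2 (0.41 ± 0.09) and Unc13d (-0.40 ± 0.09), which encodes the priming factor Munc13-4, shares close to or below those over all genes. Of 4 death ligands, Tnf and Lta rose (1.44 ± 0.14 and 1.21 ± 0.15) and Tnfsf10, which encodes TRAIL, fell (-0.58 ± 0.11). Each list had a median change above 0 (0.13, 0.05 and 0.66), against -0.10 for all genes tested.

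Receptors outside the 10 genes also moved in both directions. Of 16 tested lectin-like receptors of the NK gene complex, 5 rose and 3 fell. Klra2 (0.82 ± 0.14, limma adjusted p = 4.77e-05) and Klrb1b (0.67 ± 0.18, limma adjusted p = 0.00371) rose, and Klra4 fell (-0.33 ± 0.10, limma adjusted p = 0.00975). Klra4 averaged 1.04 TPM in CDG_HDM and 1.55 TPM in Saline. The limit given for Klra7 and Klrb1c holds for these genes of the same clusters, so reads under their symbols may come from other copies. Of 24 other NK receptors and adaptors, 13 rose and 1 fell. The 4 smallest adjusted p belonged to Fcgr3, Fcgr4, Fcer1g and Cd226, at 1.24, 1.34, 1.15 and 1.02. The first 3 encode Fc receptors and their adaptor, which macrophages also express. Itga2, which encodes the CD49b antigen used to mark NK cells in mice, was the gene that fell, at 20.3 ± 2.93 TPM in CDG_HDM and 30.8 ± 3.44 TPM in Saline with no overlap (-0.59 ± 0.11, limma adjusted p = 0.000126).

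Regulators and secreted products mostly rose. Of 13 transcription factors of NK and CD8 T cells, 8 rose, among them Id2, Zfp683, Runx3 and Stat4 (0.81, 0.64, 0.55 and 0.45), and Nfil3, needed for NK development, fell (-0.52 ± 0.17). All 6 secreted products rose, among them the chemokine Xcl1 and the cytokine Ifng, and Ccl5 had the largest adjusted p (0.54 ± 0.20, limma adjusted p = 0.0413). Xcl1 ran from 4.25 to 22.7 TPM in CDG_HDM and from 1.85 to 2.82 TPM in Saline. Ifng averaged 2.82 ± 0.871 TPM in CDG_HDM and 0.518 ± 0.176 TPM in Saline (SD, n = 10 and n = 5). Of 7 genes for cytokines acting on NK cells or for chains of their receptors, 4 rose and 1 fell. The cytokine gene Il21 and the receptor chain gene Il2rg were at 0.65 and 0.60, and Il12a was at -0.43. Il21 was near the floor, at 1.01 TPM in CDG_HDM and 0.261 TPM in Saline on average. Of 5 NKG2D ligands 2 rose, Ulbp1 and H60b (0.56 and 0.60). In AM155 minus CDG_HDM and in Dex_CDGHDM minus CDG_HDM, limma called 0 genes of these lists. At an unadjusted p under 0.05, 6 of the 16 NK gene complex lectins were higher in AM155, beside 144 higher and 1119 lower of all 17437 genes. At the same threshold 3 of the 16 lectins (Klri1, Klrd1 and Klrg1), 5 of 13 transcription factors and 4 of 24 other receptors were lower in Dex_CDGHDM, beside 393 of all genes. In Dex_CDGHDM minus AM155, Ccl5 was the single gene of these lists called, at 59.3 ± 26.3 TPM in Dex_CDGHDM and 119 ± 23.5 TPM in AM155 (SD, n = 6 each; log2 change -1.06 ± 0.21, limma adjusted p = 0.0366).

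Markers of other cells moved with these comparisons. In CDG_HDM minus Saline, all 12 T cell markers rose (median 1.43) and all 9 monocyte and macrophage markers rose (median 1.51). The CD8 genes Cd8a and Cd8b1 were at 0.21 ± 0.15 and 0.32 ± 0.23 and were not called. Erythroid markers fell in 7 of 7 (median -1.63) and neutrophil markers in 6 of 7 (median -0.86), lung endothelium and cardiac muscle markers in 6 of 6 each, and mast cell markers in 4 of 6. None of these markers was at 0 in any group. Summed T cell markers ran from 211 to 359 TPM in Dex_CDGHDM, from 304 to 423 TPM in AM155, from 317 to 540 TPM in CDG_HDM and from 116 to 208 TPM in Saline. In Dex_CDGHDM minus AM155, where Gzma, Gzmb and Prf1 were lower, 10 of 12 T cell, 5 of 7 erythroid and 3 of 7 neutrophil markers were lower at an unadjusted p under 0.05, beside 248 of all 17437 genes, and limma called none of them. The part of these cells in the changes of the 10 genes, and of the receptor, granule and other lists above, was not tested.

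In AM155 minus CDG_HDM, where Gzma was higher, 2 of 7 neutrophil and 1 of 7 erythroid markers were called higher too. At an unadjusted p under 0.05 by limma, 6 of 7 neutrophil and 7 of 7 erythroid markers were higher, beside 144 of all 17437 genes. The median changes of these 2 lists were 0.60 and 0.65. S100a8 and S100a9, the calprotectin genes of neutrophils, were called at 1.41 ± 0.24 (limma adjusted p = 0.00738) and 1.37 ± 0.25 (limma adjusted p = 0.0104), and the red cell anion exchanger Slc4a1 at 0.65 ± 0.14 (limma adjusted p = 0.044). Summed neutrophil markers ran from 383 to 1057 TPM in Dex_CDGHDM, from 616 to 1743 TPM in AM155, from 249 to 639 TPM in CDG_HDM and from 539 to 1214 TPM in Saline. Their order of medians was Saline, AM155, Dex_CDGHDM and CDG_HDM, against Saline, AM155, CDG_HDM and Dex_CDGHDM for Gzma. Summed erythroid markers had the order of Gzma, with medians of 31360 TPM in Saline, 16430 in AM155, 12400 in CDG_HDM and 12060 in Dex_CDGHDM. The part of blood or neutrophil content in the change of Gzma was not tested.

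**Figure D4:**
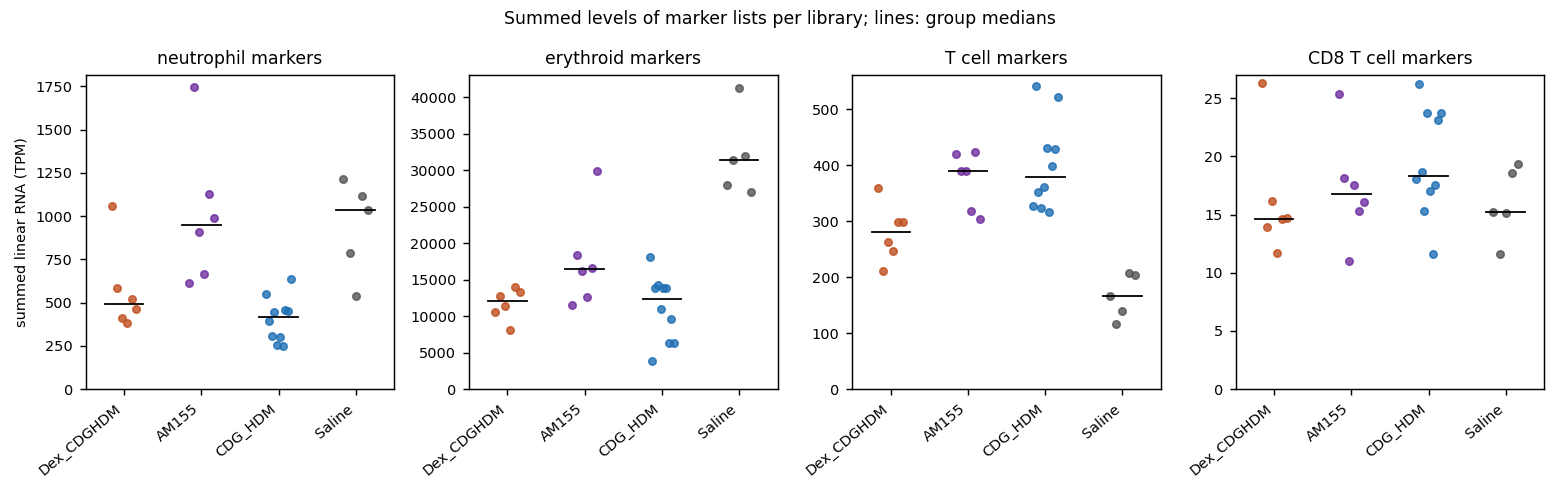
Summed TPM of neutrophil, erythroid, T cell and CD8 T cell marker lists per library (linear axes from 0), with group medians as lines. Erythroid sums lie between 3864 and 18130 TPM in CDG_HDM and between 27070 and 41230 TPM in Saline.

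After the group means were removed, the 10 genes varied together to different degrees. Pearson r over the 27 libraries, which share scale and tissue sampling, had a median of 0.59 over 45 pairs. It ran from -0.06 to 0.82, with 42 of 45 above 0. Pairs of other genes were not computed, so these values have no background to be read against. Prf1 with Eomes (0.82) and Nkg7 with Klrk1 (0.81) were the closest pairs. Gzmk was the least like the mean of the 10 genes (0.43), at 0.16 with Gzma and -0.01 with Klrb1c, and Nkg7 with Klrb1c was the lowest pair. Against marker lists, Gzma followed the neutrophil mean (0.87), and its highest r with a single gene of the other 9 was 0.74 (Gzmb). A mean over a list carries less noise than a single gene, so these 2 values cannot be ranked. Nkg7 and Klrk1 followed the T cell mean (0.81 each) and the CD8 mean (0.81 and 0.78), and Klrb1c followed the mast cell mean (0.82). Eomes and Prf1 were closest to the mean of the thymus list (0.86 and 0.78), which holds genes of developing T cells such as Rag1. These are descriptions over libraries and carry no test.

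**Figure D5:**
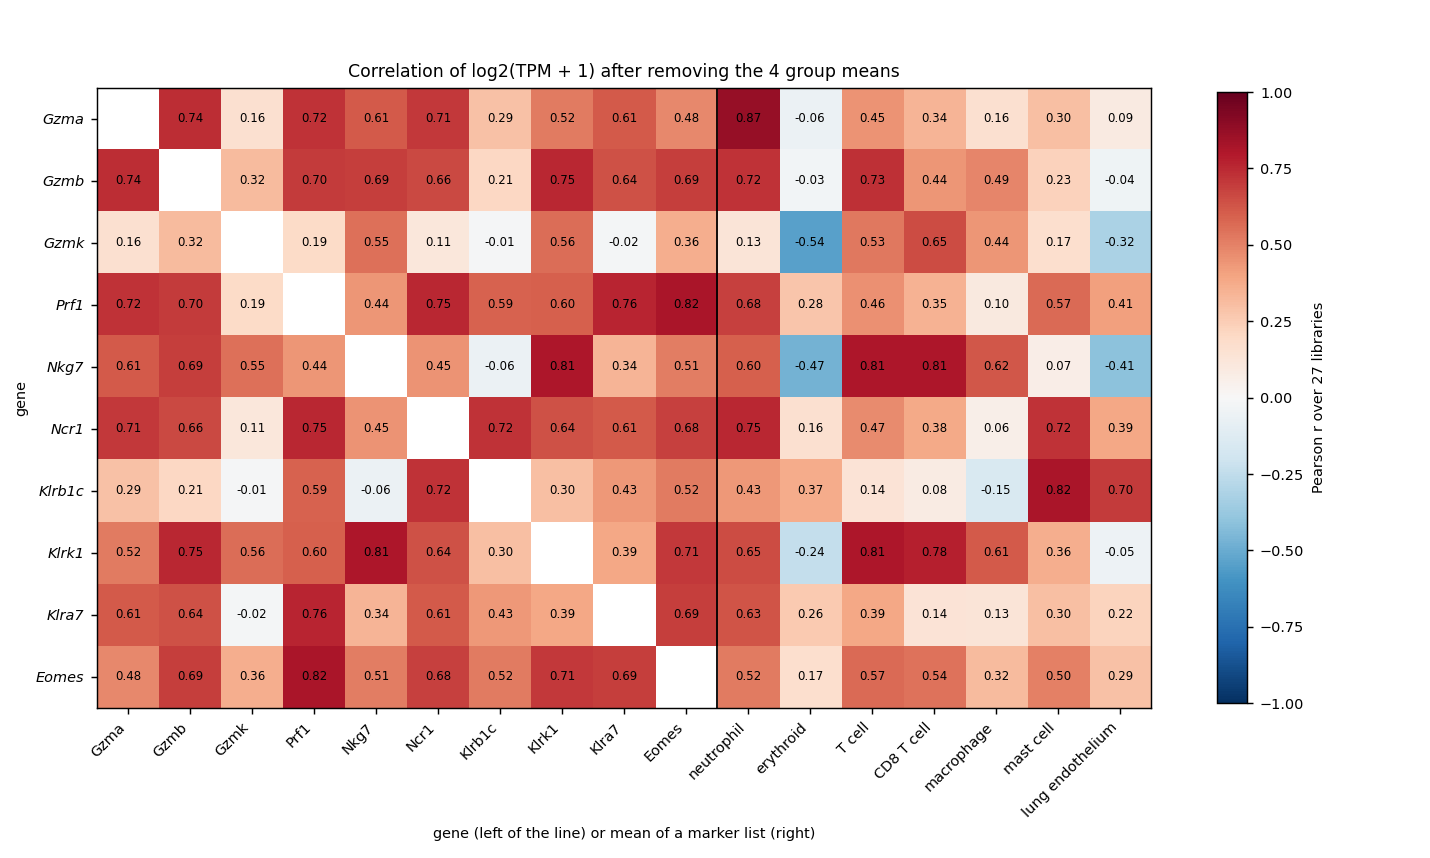
Pearson r over 27 libraries of log2(TPM + 1) less its group mean, among the 10 genes (left of the line) and between each gene and the mean of 7 marker lists (right). Gzma with neutrophil markers is at 0.87 and Gzmk with erythroid markers at -0.54.

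By the same measure, the genes outside all lists most like the mean of the 10 genes were Orm2 and Clec2i (0.90 each), Fcer2a, Samd9l and Bin2 (0.89 each), and Zfp831, Ikzf1 and Sytl3 (0.88 each). Of the 10 genes themselves, Prf1 stood at 0.88 and Eomes and Gzmb at 0.86, each being part of that mean.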

How the data were processed

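Linear RNA values were deposited by the authors as TPM per gene symbol. Per the submitters' processing notes, the build was mm10 and CASAVA 1.9 was used. No aligner, quantifier, annotation or filter is given (not given in the sources used here). Per the labels' protocols, libraries were stranded and paired-end, with RNA integrity numbers of 6.9 to 8.6. TPM keeps no counts, so depth and counting error are unknown. The deposited circular RNA TPM table served for its library sums and to look for the 10 genes. Between them, the 2 tables left 9.57% to 32.8% of the TPM scale unlisted, which moves every TPM.

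Each gene's log2(TPM + 1) was modelled when it reached 1 TPM in 5 or more libraries (17437 genes). All 27 libraries entered 1 linear model in limma (version 3.58.1, R version 4.3.3) with moderated variances following a mean trend, no covariate and Benjamini-Hochberg adjustment over all genes. On simulated data of 17437 genes, 1.5-fold changes were recovered in 88% of cases for AM155 minus CDG_HDM, 86% for Dex_CDGHDM minus CDG_HDM and 90% for CDG_HDM minus Saline. The simulation changed only genes of higher level than Gzmk and Klra7, added larger changes in other genes and used independent noise. Its shares check the code and do not say what could be detected among the 10 genes. The 27 differences from Gzma were tested by exact permutation. Positions are of GENCODE M21 (GRCm38), promoters and the microRNA of RefSeq (GRCm38.p6), and all 10 symbols matched in both.

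The 10 genes and the lists were chosen with earlier results of these data known. From each other list, up to 4 called genes with the smallest adjusted p were to be named, and from outside the lists the 8 genes most correlated with the 10; examples further down a list, and the markers printed, were picked after their values were seen. Alternatives were other pseudocounts, filters, scalings, variance models, sample sets, a replicate block and leaving out each library. Libraries carry title numbers, which do not pair them.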

Additional observations from a re-analysis of the deposited data

Results flagged for a closer look

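In the 40 sets made by 10 genes and 4 groups, 3 held a library far from the rest of its group by Dixon's 95% criterion, where chance gives about 2. Nkg7 reached 25.9 TPM in Dex_CDGHDM 1, the highest of that group. Ncr1 reached 13.0 TPM and Klrb1c 23.6 TPM in CDG_HDM 3, the highest of that group in both cases.

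Dex_CDGHDM and AM155 differed from each other in 3 genes by limma. Against CDG_HDM, Gzma was called in AM155 only, and Gzmb and Prf1 were called in neither treated group. Dex_CDGHDM minus AM155 was -1.14 for Gzma, -0.95 for Gzmb and -0.61 for Prf1 on the log2 scale, and these calls were lost without the 3 libraries rich in circular RNA.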

How the results depend on the processing

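Of 3306 values of single genes under alternatives, 3134 kept their side of the threshold, 103 fell short of it and 68 newly passed it. A change of sign was counted only where the value passed as first fitted or under the alternative. Values that passed in neither could change sign uncounted, as Eomes did in AM155 minus CDG_HDM (-0.123 to 0.114). The 1 reversal counted was Klra7 minus Gzma in AM155 minus CDG_HDM, at 0.032 with a pseudocount of 0.1 (exact permutation, adjusted p = 0.893). As ratios of mean TPM, Klra7 rose more than Gzma in that comparison (1.996 against 1.744). The pseudocount of 1 compresses the change of Klra7, which lies near 1 TPM, more than that of Gzma. Counts of called genes follow, with all-gene counts beside them. Leaving out each library gave, for CDG_HDM minus Saline, 1 to 2 higher and 5 to 7 lower of the 10 genes and 4546 to 7385 in all. For Dex_CDGHDM minus CDG_HDM it gave 0 of the 10 and 0 to 2 in all. For AM155 minus CDG_HDM it gave 0 to 3 higher and 7 to 21 in all. For Dex_CDGHDM minus AM155 it gave 2 to 4 lower and 9 to 34 in all. For Dex_CDGHDM minus Saline it gave 4 to 7 lower and 3435 to 6077 in all, and for AM155 minus Saline 1 to 4 higher, 1 to 3 lower and 5520 to 9484 in all. Under the 3 scalings (common sum, median of ratios, quantile), AM155 minus CDG_HDM had 4, 5 and 4 higher and 37, 34 and 33 in all, Dex_CDGHDM minus AM155 had 5 lower under the last 2 and 59, 103 and 115 in all, and Dex_CDGHDM minus CDG_HDM had 36, 48 and 63 in all with 0 of the 10. The share of all calls that were higher was 80.6%, 66.7% and 63.5% in Dex_CDGHDM minus CDG_HDM against 0 as deposited, 49.2%, 48.5% and 53.9% against 21.4% in Dex_CDGHDM minus AM155, 71.4%, 51.9% and 46.5% against 30.3% in Dex_CDGHDM minus Saline, and 68.7%, 50.6% and 44.6% against 19.3% in AM155 minus Saline. Dex_CDGHDM minus Saline had 1 higher of the 10 under the common sum, array weights and a fit of 2 groups only. AM155 minus Saline had 1 lower under a pseudocount of 0.1, no filter, the 3 scalings, 2 groups only and without the 3 libraries rich in circular RNA. AM155 minus CDG_HDM had 1 higher with no filter, 1 TPM in every library (which drops Klra7 and Gzmk), a robust variance, array weights or 2 groups only, and 0 without those 3 libraries. CDG_HDM minus Saline had 1 higher with 1 TPM in every library, array weights or without Saline 4 and AM155 6. All-gene counts were 0 (either pseudocount, or 1 TPM in every library), 2 (no filter, or 2 groups only) and 11 (array weights) in Dex_CDGHDM minus CDG_HDM, 9822, 26 and 9084 with array weights in CDG_HDM minus Saline, Dex_CDGHDM minus AM155 and Dex_CDGHDM minus Saline, and 22 with 2 groups only in Dex_CDGHDM minus AM155. Without the 3 libraries rich in circular RNA, a choice made after seeing the data, 0 of the 10 were lower in Dex_CDGHDM minus AM155 and all-gene counts were 3 there, 3 in Dex_CDGHDM minus CDG_HDM and 4518 in AM155 minus Saline. Without Saline 4 and AM155 6, also chosen after seeing the data as the lowest on the second principal component, AM155 minus CDG_HDM had 4 higher and 28 in all, AM155 minus Saline had 1 higher, and all-gene counts were 8660, 5 and 7655 in CDG_HDM minus Saline, Dex_CDGHDM minus CDG_HDM and Dex_CDGHDM minus Saline. Libraries of the same title number did not deviate together (r of -0.24 to 0.27 over 20 pairs, 2 above 0.1), so the numbers pair nothing. A replicate block on them gave 1 higher in CDG_HDM minus Saline, 0 higher in AM155 minus CDG_HDM and 0 lower in Dex_CDGHDM minus AM155, with 3315, 10 and 2815 in all in CDG_HDM minus Saline, AM155 minus CDG_HDM and Dex_CDGHDM minus Saline and 0 in Dex_CDGHDM minus CDG_HDM. TPM gives no depth, so what could be detected for Gzmk and Klra7, near 1 TPM, is unknown.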
